A study of Homo sapiens with 8 samples.

Results

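The clustered protocadherins are cell adhesion proteins of the cadherin superfamily, encoded by 3 neighbouring gene clusters on human chromosome 5: PCDHA (alpha), PCDHB (beta) and PCDHG (gamma). Their RNA was followed in DLD1 colorectal cancer cells on 8 single-colour Agilent arrays. Members were taken as all non-control probes whose gene name in the array files starts with PCDHA, PCDHB or PCDHG. This gave 58 of the 50599 probes, for 50 of 36337 gene names: 16 probes of PCDHA, 19 of PCDHB and 23 of PCDHG. DLD1 is an established colon adenocarcinoma line, described by the study as having widespread CpG island methylation.

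All cells were transfected with siRNA for 48 h and then kept for a further 24 h with either 300 nM trichostatin A (TSA), which inhibits histone deacetylases, or ethanol alone (mock). The siRNA was a control (siCONT) or either of 2 siRNAs against UHRF1, a protein that guides the maintenance DNA methyltransferase DNMT1 to replicating DNA. This gave 4 groups with 2 arrays each: siCONT or UHRF1 depletion with mock, and siCONT or UHRF1 depletion with TSA. The 2 arrays of a depletion group carry the 2 different siRNAs. The 2 arrays of a siCONT group differed by only 1.10 times (mock) and 1.15 times (TSA) the difference that repeated spots of a probe predict, against 13.7 and 11.4 times for the depletion groups, so they were counted as 1 sample in group means. The tests kept them as 2 samples, and the outcome with 1 sample stands beside the calls. The sources used here do not say that the arrays of a group came from separate cultures, so the p-values measure only the spread between these arrays, which may be technical. All mock arrays shared 1 row of the slide and all TSA arrays the other, so TSA and slide row cannot be told apart. Likewise, siCONT arrays lay in columns 1 and 2 and UHRF1 depletion arrays in columns 3 and 4, so UHRF1 depletion and slide column cannot be told apart.

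In the alpha and gamma clusters, each of many large variable exons has its own promoter, and is spliced to constant exons shared by the whole cluster. Genes of the beta cluster consist of a single large exon and have no constant part. In neurons, each cell uses a small, largely random selection of these promoters, and the resulting mixture of proteins, which bind like to like, serves as a surface label that lets a neuron tell its own branches from those of others. Most of the promoters carry a CpG-rich conserved element, can be silenced by DNA methylation, and are bound by CTCF and cohesin when active. Their silencing by methylation in tumours is well known.

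What a probe reads depends on which part of a transcript it matches, so the probes behind the results are shown first. All are 60 bases long and lie on the plus strand of chromosome 5 (hg19). Of the 58 probes, 56 lie in variable exons or single-exon beta genes. The other 2 lie beyond the last variable exon of their cluster and are annotated to transcript variant 1, the long form with the constant exons. They are filed under PCDHA11 (chr5:140390896-140390955) and PCDHGA8 (chr5:140892394-140892453), but the accessions attached to each name 4 genes of its cluster, and both are called constant-exon probes here. All 15 other alpha probes and 21 of the 22 other gamma probes are annotated to transcript variant 2, the short form that ends without the constant exons. In 7 of these 15 alpha probes the letters GTAAGT or GTGAGT, which open an intron at a splice donor, were found on the probe strand. Of all probes of the array, 2.14% hold them. They were also found in 3 of the 19 beta probes, whose genes have a single exon, and in 1 of the 22 other gamma probes. The letters alone thus do not show a splice donor. The probes of PCDHA12 (chr5:140257377-140257436) and PCDHA7 (chr5:140216279-140216338) are given with these letters in capitals; 12 and 15 bases, respectively, lie from the capitals to the end of the probe.

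PCDHA12: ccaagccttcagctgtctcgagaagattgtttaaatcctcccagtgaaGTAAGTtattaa

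PCDHA7: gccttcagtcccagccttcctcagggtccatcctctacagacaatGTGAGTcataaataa

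Paralogs of a cluster are alike, and some probes share long stretches. The accessions of 8 of the 58 probes name more than 1 member. The probe of PCDHGA2 (chr5:140720840-140720899) and that of its neighbour PCDHGA3 (chr5:140725938-140725997) share a run of 24 bases, shown in capitals. The accessions of the first name PCDHGA2, PCDHGA3, PCDHGA1 and PCDHGA11, and a value for it cannot be assigned to a single gamma gene.

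PCDHGA2: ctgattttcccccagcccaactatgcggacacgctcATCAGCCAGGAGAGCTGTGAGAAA

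PCDHGA3: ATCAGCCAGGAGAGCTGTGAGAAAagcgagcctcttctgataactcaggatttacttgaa

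In the beta cluster, the probe of PCDHB13 (chr5:140595978-140596037) and the first probe of PCDHB2 (chr5:140476664-140476723) share a run of 23 bases, in capitals, and match at 48 of 59 aligned bases. The first was well above background on all 8 arrays and the second on none. The accessions of this PCDHB2 probe name 2 genes.

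PCDHB13: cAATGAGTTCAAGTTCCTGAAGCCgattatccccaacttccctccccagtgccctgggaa

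PCDHB2: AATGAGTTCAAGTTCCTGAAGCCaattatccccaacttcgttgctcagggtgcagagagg

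The probe of PCDHB11 (chr5:140581576-140581635) shares 14 bases, in capitals, with that of PCDHB8 (chr5:140559850-140559909), which was never well above background. The probe of PCDHGA12 (chr5:140812359-140812418) has accessions that name PCDHGA12 and PCDHGA10.

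PCDHB11: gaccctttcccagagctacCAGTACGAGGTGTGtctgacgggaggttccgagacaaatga

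PCDHB8: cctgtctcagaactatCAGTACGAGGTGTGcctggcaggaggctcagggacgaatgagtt

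PCDHGA12: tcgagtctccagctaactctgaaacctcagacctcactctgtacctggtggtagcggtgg

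Most of the clustered protocadherin probes were dark in DLD1 cells. A probe counts as well above background where the image extraction flags it so. Of the 58 probes, 37 (63.8%) were never well above background on any array, compared with 45.3% of all probes. Only 6 (10.3%) were well above background on all 8 arrays, compared with 39.3% of all probes. The remaining 15 were seen on some arrays, 9 of them on a single array. By cluster, 8 of 16 PCDHA, 15 of 19 PCDHB and 14 of 23 PCDHG probes were never well above background. The 4 pseudogene probes, filed as PCDHB17, PCDHB18, PCDHB19P and PCDHGB8P, were among these.

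The number of detected members was lowest in siCONT cells with mock and highest in UHRF1-depleted cells with TSA. It was 6 and 6 on the siCONT mock arrays, 8 and 8 on those of UHRF1 depletion with mock, 10 and 8 with TSA in siCONT, and 14 and 16 with both. The share of all probes detected moved from between 43.3% and 43.4% to between 47.1% and 48.0% between the first and last of these groups. In PCDHB the count moved from 1 and 1 to 4 and 4, and in PCDHG from 3 and 3 to 6 and 6. Of the 52 members dark on both siCONT mock arrays, 1 was seen on both arrays of UHRF1 depletion with mock (PCDHA5), against 2.49% of all such probes. With TSA in siCONT it was again 1 (PCDHB11), against 5.21% of all. With UHRF1 depletion plus TSA it was 5 of 52 (9.62%), namely PCDHA12, PCDHB11, PCDHB14, PCDHB16 and PCDHGA12, against 7.0% of all, which is close to the background. A further 8 of the 52 (15.4%) were seen on 1 of its arrays, against 5.38% of all. A higher amount of RNA in each cell and expression in more of the cells cannot be told apart in these bulk samples.

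**Figure D1:**
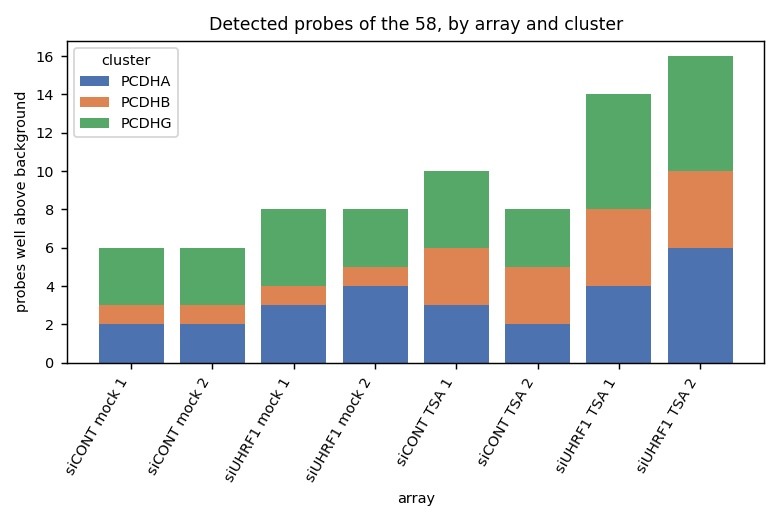
Number of the 58 clustered protocadherin probes that were well above background on each of the 8 arrays, stacked by cluster. The count was 6 on both siCONT mock arrays and 14 and 16 on the arrays of UHRF1 depletion with TSA.

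Each level that follows is the log2 of an intensity over the 75th percentile of its array, so that 75% of the probes lie below a level of 0. Levels are compared only within a probe. The lowest level flagged as well above background lay between −3.79 and −3.37 on the 8 arrays. The 37 dark probes had levels between −6.14 and −3.39, with a median of −5.61, which are set largely by the background and carry no order.

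**Figure D2:**
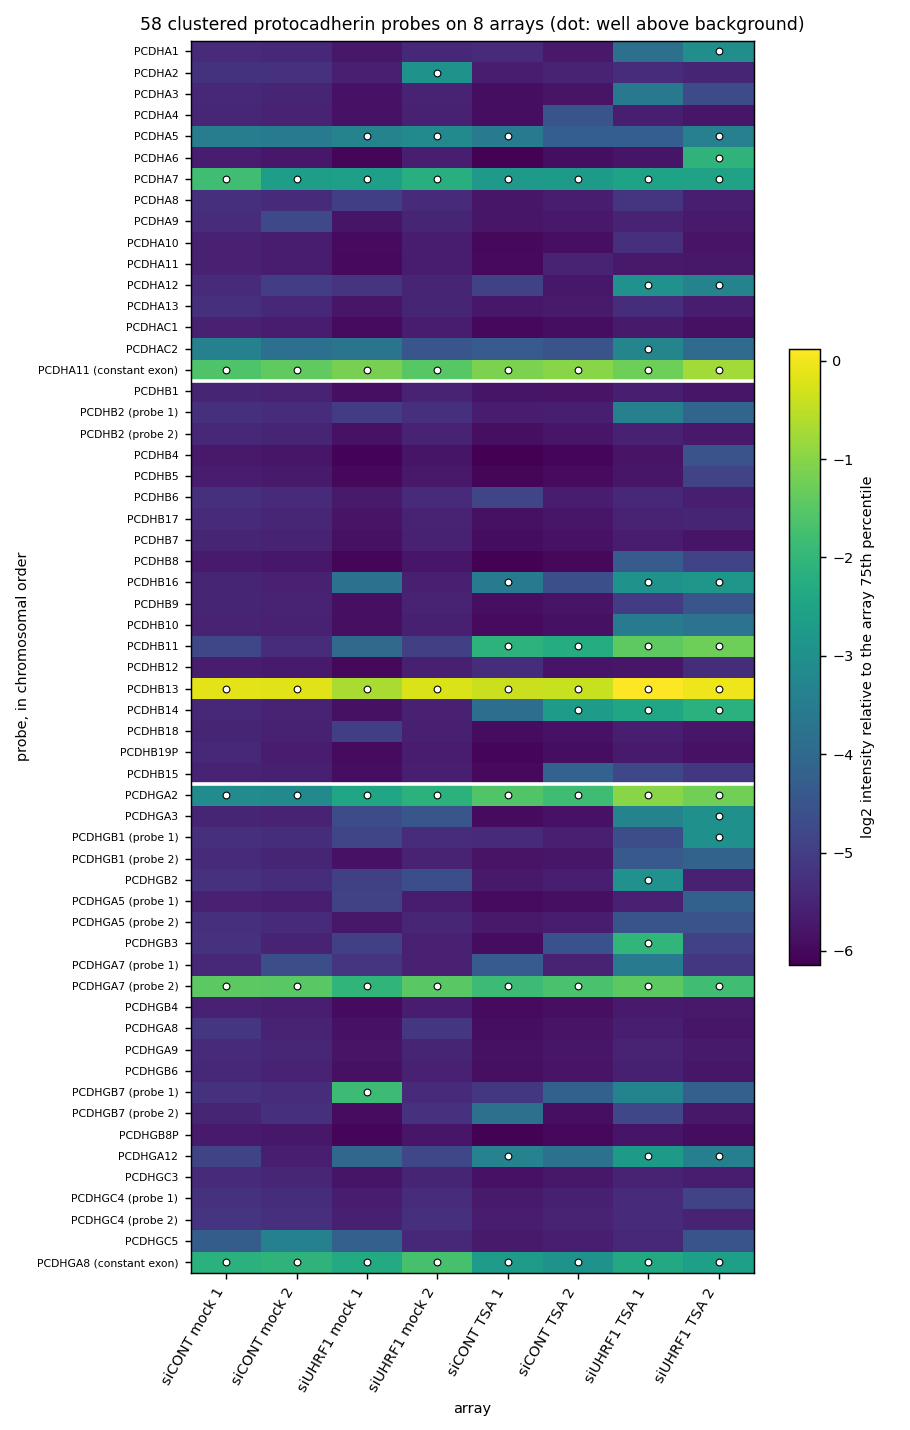
Level of each of the 58 probes (rows, in chromosomal order, white lines between the clusters) on each of the 8 arrays (columns), as log2 of intensity over the 75th percentile of the array. A dot marks a probe well above background; 6 rows carry dots on all 8 arrays and 37 carry none.

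Changes were tested with limma over all probes and called where the p adjusted by Benjamini-Hochberg was under 0.05 and the change reached 2-fold. Testing required that 1 of the groups compared had the probe well above background on both of its arrays, which left 12 of the 58 members in any comparison. UHRF1 itself, the target of the siRNAs, had levels of 1.98 and 2.01 in siCONT with mock and 0.34 and −0.02 after depletion, and of 1.04 and 1.01 against −1.55 and −2.14 under TSA. It was called lower after depletion under mock (log2 change −1.83, SE 0.22, limma adjusted p = 0.012) and under TSA (−2.87, SE 0.22, limma adjusted p = 0.00234). With the siCONT arrays taken as 1 sample, neither call held (limma adjusted p = 0.252 and 0.0535), while UHRF1 was lower in the combination (−3.84, limma adjusted p = 0.0074).

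UHRF1 depletion plus TSA raised 6 members against siCONT with mock, and lowered none: PCDHB11, PCDHB14, PCDHB16, PCDHGA12, PCDHA12 and PCDHGA2. They come from all 3 clusters (1 of PCDHA, 3 of PCDHB and 2 of PCDHG). Of the 11 members tested, 6 were called higher, compared with 14.5% of all 23734 probes tested. With the siCONT arrays of an agent counted as 1 sample, 5 were called higher (all but PCDHB16), against 9.74% of all. Of the 11, 5 could be tested only because they were well above background in the depleted cells with TSA, and such a probe had to be higher there, so the 6 of 11 do not show how the members as a whole moved. Over all 58 probes with no filter, the median log2 change was 0.13, against −0.17 over all 50599 probes. As 37 of the 58 are dark on all arrays, this median is set largely by background signal. The other 47 members were dark on at least 1 array of each of these groups and were not tested.

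**Figure D3:**
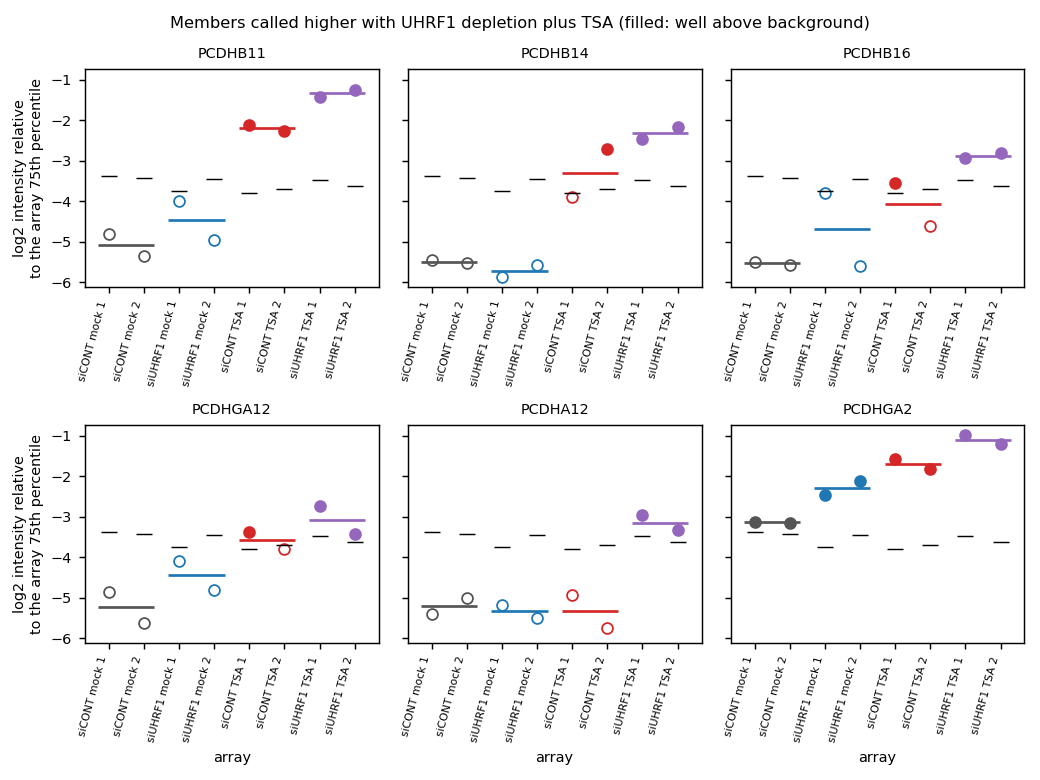
Level of the 6 members called higher with UHRF1 depletion plus TSA, on each array (log2 of intensity over the 75th percentile of the array). Filled points are well above background, coloured bars are group means, and black dashes mark the lowest level flagged as well above background on that array. Only PCDHGA2 is filled on all 8 arrays.

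PCDHB11 had levels of −4.80 and −5.35 in siCONT with mock and of −3.99 and −4.94 after UHRF1 depletion alone, none of them well above background. It reached −2.10 and −2.26 with TSA in siCONT and −1.42 and −1.25 with UHRF1 depletion plus TSA, all well above background. Both TSA groups thus lay above both mock groups without overlap. Against siCONT with mock, the fitted log2 change of the combination was 3.74 (SE 0.34, limma adjusted p = 0.000532). Since the mock groups were below background, the measured bound is at least 4.17-fold higher for the combination and at least 2.32-fold higher for TSA alone. A bound of this kind sets the mean of the brighter group against the lowest signal well above background on the dim arrays, or the probe's own signal there where that is higher. Under TSA, UHRF1 depletion changed PCDHB11 by 0.85 (SE 0.34), which was not called (limma adjusted p = 0.134).

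PCDHB14 (chr5:140605528-140605587) lay between −5.86 and −5.44 on the 4 mock arrays. With TSA in siCONT it had levels of −3.88 and −2.71, the second well above background. With UHRF1 depletion plus TSA it had −2.47 and −2.15, both well above background and above all other arrays. The fitted change of the combination was 3.18 (SE 0.37, limma adjusted p = 0.00122), with a bound of at least 2.12-fold higher.

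PCDHB16 (chr5:140565335-140565394) had levels of −5.49 and −5.56 in siCONT with mock, and of −3.78 and −5.59 after UHRF1 depletion alone, none of them well above background. It was at −3.54 and −4.60 with TSA in siCONT, the first well above background, and at −2.94 and −2.81 with both. The fitted change of the combination was 2.65 (SE 0.61, limma adjusted p = 0.014), with a bound of at least 1.43-fold higher. The call was lost with the siCONT arrays counted as 1 sample (limma adjusted p = 0.07), and when either siCONT mock array or either array of UHRF1 depletion with TSA was left out.

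PCDHGA12 had levels of −4.87 and −5.61 in siCONT with mock, −4.08 and −4.81 after UHRF1 depletion, −3.37 and −3.79 with TSA in siCONT, and −2.73 and −3.43 with both. The TSA groups overlapped each other and lay above both mock groups. Only the first array of siCONT with TSA and both arrays of the combination were well above background. The fitted change of the combination was 2.16 (SE 0.39, limma adjusted p = 0.00588), but the bound was only at least 1.24-fold higher.

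PCDHA12 was seen only where both treatments were given. Its levels lay between −5.74 and −4.94 on the 6 arrays of the other groups, and were −2.96 and −3.33 with UHRF1 depletion plus TSA. The fitted change of the combination was 2.06 (SE 0.31, limma adjusted p = 0.00287). The bound was at least 1.19-fold higher than siCONT with mock, 1.51-fold higher than siCONT with TSA and 1.37-fold higher than UHRF1 depletion with mock. As its probe was designed on the short transcript form, these values do not tell how much of the RNA was spliced to the constant exons.

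PCDHGA2 was the only called member that was well above background throughout, so its fold change is measured on both sides. Its levels were −3.12 and −3.15 in siCONT with mock, −2.47 and −2.12 after UHRF1 depletion, −1.58 and −1.81 with TSA in siCONT, and −0.99 and −1.21 with both. The 4 groups did not overlap. The change of the combination was 2.04 (SE 0.17, limma adjusted p = 0.000418), or 4.11-fold. In siCONT with mock its intensities of 15.8 and 16.1 lay close to the lowest flagged on those arrays, 13.3 and 13.4. With normexp background correction, described below, its change was 0.73. The probe of PCDHGA3, with which it shares 24 bases, was well above background on 1 array, the second of UHRF1 depletion with TSA (−2.99).

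UHRF1 depletion alone, under mock, raised no member past both thresholds. Of 7 members tested, 0 were called by limma in either direction, compared with 3.13% of all probes called higher, and 0 reached 2-fold at an unadjusted p under 0.05. With the siCONT arrays counted as 1 sample, limma also called 0, against 0.0223% of all. The methods' t-test called 0 as well without adjustment, against 544 of 22383 probes called higher. After adjustment it called 0 of all probes tested, so its 0 among the members decides nothing. The nearest was PCDHGA2, which changed by 0.84 (SE 0.17, limma adjusted p = 0.0388), short of 2-fold, and whose adjusted p was 0.511 with limma when the siCONT arrays were counted as 1 sample. PCDHA5, with a short-form alpha probe, was well above background on both arrays after depletion and on neither of siCONT with mock. Its levels were −3.48 and −3.54 in siCONT and −3.34 and −3.15 after depletion, a change of 0.26 (SE 0.33, limma adjusted p = 0.611), so its detection marks a small step across the background limit.

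TSA alone, in siCONT, raised PCDHB11 by 2.89 (SE 0.34, limma adjusted p = 0.002) and PCDHGA2 by 1.44 (SE 0.17, limma adjusted p = 0.00207). These were 2 of 7 members tested, against 10.4% of all probes called higher. Neither was called with the siCONT arrays counted as 1 sample, where limma adjusted p was 0.0699 for PCDHB11 and 0.113 for PCDHGA2 and the background was 1.26%. PCDHB11 was dark in siCONT with mock and could be tested only through the TSA group, where it is high. The 2 of 7 thus do not show how the members as a whole moved. In UHRF1-depleted cells, TSA against mock raised 5 of 12 members tested, against 11.7% of all. PCDHGA2, measured in both groups, changed by 1.20 (SE 0.17). The other 4 were dark in the depleted cells with mock, and their bounds were at least 4.80-fold higher for PCDHB11, 2.44-fold for PCDHB14, 1.43-fold for PCDHGA12 and 1.37-fold for PCDHA12. These 4 and PCDHB16 could be tested only because they were detected with TSA, so the 5 of 12 do not show how the members as a whole moved. Of the 5 called, all but PCDHGA12 were also called with the siCONT arrays counted as 1 sample, against 10.0% of all. This PCDHGA12 call was lost in 11 of the 18 alternatives described below. PCDHB16 changed by 1.81 (SE 0.61) and missed the threshold (limma adjusted p = 0.0582).

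Under TSA, UHRF1 depletion raised 1 of 11 members tested, PCDHA12, against 5.39% of all probes called higher. Its fitted change was 2.19 (SE 0.31, limma adjusted p = 0.00966) and its bound at least 1.51-fold higher. It was tested only through the depleted cells with TSA, where it is high, and so was its interaction. It was not called with the siCONT arrays counted as 1 sample (limma adjusted p = 0.0711, background 0.675%). The interaction, the effect of UHRF1 depletion under TSA minus that under mock, was tested for 12 members and called for PCDHA12 alone, at 2.32 (SE 0.43, limma adjusted p = 0.0399), against 2.83% of all probes called with a positive interaction. With the siCONT arrays counted as 1 sample, limma adjusted p was 0.308 and the background 0.0%. For PCDHB11 the interaction was 0.23 (SE 0.48) and for PCDHGA2 −0.24 (SE 0.24), and neither was called. The comparisons share arrays and are not independent of each other.

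**Figure D4:**
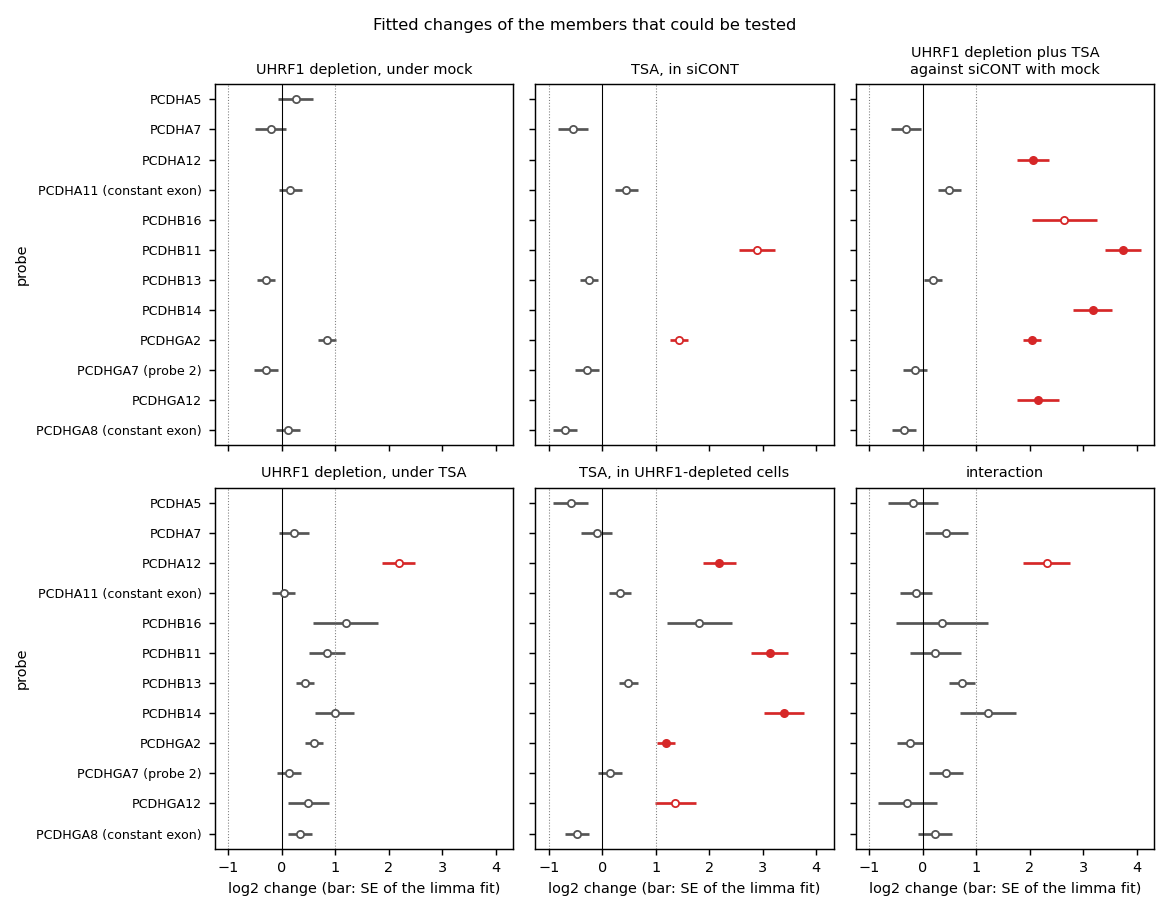
Fitted log2 changes (points) with the SE of the limma fit (bars) for the 12 members that could be tested, 1 panel for each of the 6 comparisons. Red marks a call on 8 arrays, filled red a call that was also made with the siCONT arrays counted as 1 sample, and dotted lines mark a 2-fold change. A row is empty where the probe was not tested. The filled red points in the combination are PCDHA12, PCDHB11, PCDHB14, PCDHGA2 and PCDHGA12.

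The called members are dim, and the size of their changes differed with the treatment of the background. Their processed intensities lay between 2.92 and 75.7 over the 8 arrays. With normexp background correction, which adds an offset of 50 to every spot, 0 of the 6 members reached 2-fold with UHRF1 depletion plus TSA, and their changes lay between 0.16 and 0.79. The adjusted p stayed under the threshold for 4 of the 6.

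Members that DLD1 cells already expressed moved little. Apart from PCDHGA2, 5 probes were well above background on all 8 arrays: PCDHA7, PCDHB13, PCDHGA7 and both constant-exon probes. None of them was called in any of the 6 comparisons, and their changes lay between −0.70 and 0.73. PCDHB13 had levels of −0.14 and −0.17 in siCONT with mock, −0.67 and −0.22 after UHRF1 depletion, −0.39 and −0.40 with TSA in siCONT, and 0.12 and −0.04 with both. The nearby genes PCDHB11 and PCDHB14 were called higher in the combination, while PCDHB13 changed by 0.19 (SE 0.17, limma adjusted p = 0.388) there. PCDHB12, which lies between PCDHB11 and PCDHB13, was dark on all arrays.

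PCDHGA7 was at −1.46 and −1.48 in siCONT with mock and between −2.05 and −1.45 on the other 6 arrays, with a change of −0.15 (SE 0.22) in the combination. The second probe of this gene, whose accessions name PCDHGA7 and PCDHGA8, was dark on all 8 arrays, so the pair disagree. PCDHA7 was at −1.79 and −2.63 on the siCONT mock arrays, a wider gap than between the arrays of any other group, and between −2.78 and −2.22 elsewhere. Its change in the combination was −0.32 (SE 0.28).

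The constant-exon probes read the long transcripts of the alpha and gamma clusters together. That of the alpha cluster was at −1.59 and −1.42 in siCONT with mock, −1.17 and −1.52 after UHRF1 depletion, −1.12 and −0.98 with TSA in siCONT, and −1.27 and −0.76 with both. Its change in the combination was 0.49 (SE 0.21, limma adjusted p = 0.104). That of the gamma cluster was at −2.15 and −2.08, −2.31 and −1.70, −2.71 and −2.93, and −2.36 and −2.59 in the same order of groups. It was lower with TSA in siCONT by a change of −0.70 (SE 0.22, limma adjusted p = 0.049), short of 2-fold and with a limma adjusted p of 0.395 with the siCONT arrays counted as 1 sample. Its change in the combination was −0.36 (SE 0.22, limma adjusted p = 0.229). The variable-exon probes filed under PCDHA11 and PCDHGA8, whose names the constant-exon probes also bear, were dark on all arrays.

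**Figure D5:**
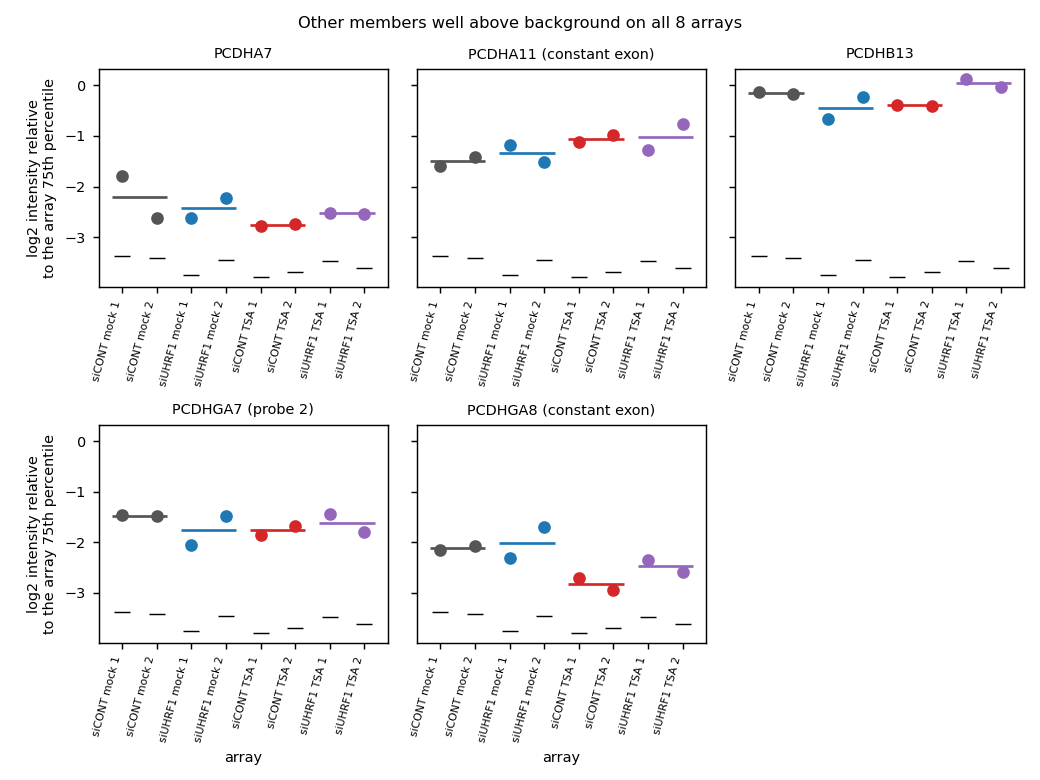
Level of the 5 other members that were well above background on all 8 arrays (log2 of intensity over the 75th percentile of the array). Coloured bars are group means and black dashes the lowest level flagged as well above background on that array. None of the 5 was called in any comparison.

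Of the 58 members, 9 (15.5%) were seen on a single array, compared with 4.76% of all probes. Of the 9, 7 were seen in the group with UHRF1 depletion plus TSA, and there with only 1 of the 2 siRNAs. Over all 50599 probes, this group also had the most that were seen on only 1 of its 2 arrays, 2270. The other groups had between 1577 and 2075. PCDHA1, PCDHA6, PCDHGA3 and the first probe of PCDHGB1 were seen with the second siRNA. PCDHAC2, PCDHGB2 and PCDHGB3 were seen with the first. PCDHAC2 was at −3.30 there, but at −3.39 and −3.85 in siCONT with mock, so its detection marks a small step across the background limit. PCDHA6 was at −5.78 with the first siRNA and −2.06 with the second, and PCDHGB3 at −2.01 and −4.90. The lower value of each pair is not above background, so these gaps are not measured differences. The other 2 were seen after UHRF1 depletion with mock: PCDHA2 with the second siRNA (−2.95 against −5.59) and the first probe of PCDHGB7 with the first (−1.85 against −5.39). The second probe of PCDHGB7 was dark on all arrays. With 1 array for each siRNA and agent, a difference between siRNAs cannot be told apart from the error of a single array.

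Most promoters of these clusters hold a conserved element with the core letters CGCT, and DNA methylation of such promoters bears on the question of the study, so their sequences were compared. RefSeq promoters (GRCh38.p14, from 250 bases before to 50 bases after the gene start) were found for 40 of the 50 genes. CGCT was present in 39 of these 40 on the gene strand, but also, on either strand, in 70.0% of all 35116 promoters. The letters around it differed by cluster. GATGTCGCT was found in 9 of 13 PCDHA promoters and 0.105% of all promoters, GGTGGCGCT in 12 of 13 PCDHB promoters and 0.501% of all, and CGCTGTT in 8 of 14 PCDHG promoters and 2.26% of all, searching both strands. All 3 of these longer strings contain CGCT.

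The windows around the first CGCT, in capitals, are shown for the called members with a promoter entry and for the members expressed throughout. They lie on the plus strand, for PCDHA12 at chr5:140875242-140875279, PCDHB14 at chr5:141223261-141223298, PCDHB16 at chr5:141182308-141182345, PCDHGA2 at chr5:141338701-141338738, PCDHA7 at chr5:140834170-140834207, PCDHB13 at chr5:141213863-141213900 and PCDHGA7 at chr5:141382647-141382684. In all 7 the capitals lie between 38 and 81 bases before the start.

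PCDHA12: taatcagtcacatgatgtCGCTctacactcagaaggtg

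PCDHB14: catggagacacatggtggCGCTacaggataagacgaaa

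PCDHB16: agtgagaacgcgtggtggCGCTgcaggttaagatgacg

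PCDHGA2: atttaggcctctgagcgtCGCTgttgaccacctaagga

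PCDHA7: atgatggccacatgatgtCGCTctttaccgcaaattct

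PCDHB13: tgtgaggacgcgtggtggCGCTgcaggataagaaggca

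PCDHGA7: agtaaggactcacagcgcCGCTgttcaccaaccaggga

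The cluster-specific letters were held by called members and by members that did not move alike. PCDHA12 and PCDHA7 share GATGTCGCT, PCDHB14, PCDHB16 and PCDHB13 share GGTGGCGCT, and PCDHGA2 and PCDHGA7 share CGCTGTT. As the PCDHGA2 probe cannot be assigned to a single gamma gene, the PCDHGA2 promoter is counted as called by name only. A promoter window held a median of 7 CpG sites over the 40 members, against 14 over all promoters. The 4 called members held between 5 and 9, and the 3 expressed throughout between 6 and 10, so the ranges overlapped. A match is a description of the letters only, and methylation at these sites was not measured on these arrays.

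The genes that border the clusters gave another point of reference. TAF7 and SLC25A2 lie between the beta and gamma clusters. TAF7, a subunit of the general transcription factor TFIID, was at 5.02 and 5.12 in siCONT with mock and 5.19 and 5.40 in the combination, a change of 0.23 (SE 0.13, limma adjusted p = 0.186). SLC25A2, a mitochondrial ornithine carrier, was at −2.57 and −2.63 in siCONT with mock and −3.57 and −2.98 in the combination, a change of −0.68 (SE 0.48, limma adjusted p = 0.287). Of 16 genes around the clusters, all tested in the combination, 2 were called higher (ARAP3, by 1.31, and RELL2, by 1.12) and 1 lower (HARS2, by −1.23). The shares over all probes tested were 14.5% and 11.1%. ARAP3 and HARS2 were still called with 1 siCONT sample per agent. The median change over the 16 was −0.16.

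Regulators of cluster architecture and silencing were expressed: 18 of 18 genes reported were well above background on both arrays of every group. In the combination 0 of the 18 were called higher and 3 lower, beside 14.5% and 11.1% of all probes. Cohesin subunits RAD21 (−1.05, SE 0.19, limma adjusted p = 0.00561) and SMC1A (−1.33, SE 0.16, limma adjusted p = 0.00126) were called lower, and so was DNMT1, the maintenance methyltransferase, which was named after its values were seen. SMC1A and DNMT1 kept the call with 1 siCONT sample. CTCF had levels of 0.91 and 0.92 in siCONT with mock and of 0.57 and 1.04 in the combination, and was not called there (−0.11, SE 0.27, limma adjusted p = 0.758). SMCHD1, which represses these clusters, changed by 0.39 (SE 0.11), short of 2-fold. The median change of the 18 was −0.32, against −0.14 over all probes tested.

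Among 16 genes for processing and binding partners of the proteins, 15 were tested in the combination and 1 was called lower (NCSTN, a subunit of gamma-secretase, by −1.06, SE 0.17, not called with the siCONT arrays counted as 1 sample). Of 21 non-clustered protocadherins and related large cadherins, only 5 could be tested. Of these, 2 were called higher in the combination, beside 14.5% of all probes tested. They were CDHR5, an adhesion protein of the intestinal brush border (levels −4.42 and −4.28 in siCONT with mock, −0.96 and 0.38 in the combination), and PCDH7 (−0.72 and −0.76 in siCONT with mock, 1.03 and −0.05 in the combination). Of the 2, CDHR5 was also called with the siCONT arrays counted as 1 sample. However, CDHR5 was dark in siCONT with mock and could be tested only through the combination, where it is high. Other protocadherins, such as PCDH8, PCDH9, PCDH10, PCDH18, PCDH19 and PCDH20, were not detected in any group.

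The arrays matched the labelled cell type, with 11 of 11 colon epithelial markers well above background on both arrays of every group. As clustered protocadherins are known best from neurons, markers of neurons were also measured: 3 of 13 were well above background on both siCONT mock arrays and 3 in the combination, and SYN1, GAP43, STMN2, DCX, ELAVL3, ELAVL4, NEFL and NEFM were not detected on any array. Their summed intensity, relative to the 75th percentile, lay between 30.8 and 31.8 in siCONT with mock and between 81.3 and 82.6 in the combination. It was already 77.9 and 75.9 with TSA in siCONT. In the combination, TUBB3 and MAP2 were called higher. These were 2 of 3 neuron markers seen there, beside 14.5% of all probes tested, and only TUBB3 was also called with the siCONT arrays as 1 sample. Of 8 fibroblast markers, 0 were detected in siCONT with mock and 2, VIM and COL1A1, on both arrays of the combination. The summed intensity of the 8 lay between 0.301 and 0.343 in siCONT with mock and between 2.44 and 3.67 in the combination. It was 1.80 and 1.97 with TSA in siCONT, where 2 markers were also detected on both arrays. Of 4 leukocyte markers on the array, 1 was detected in siCONT with mock and 2 in the combination, with summed intensities between 0.379 and 0.399 and between 0.529 and 1.48. The part of these shifts in the results on protocadherins was not tested.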

How the data were processed

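Total RNA of DLD1 cells was labelled with Cy3 and hybridised to 8 Agilent SurePrint G3 Human GE v2 arrays. The deposited files of the single arrays hold, per the file headers, spot intensities on a linear scale, background-subtracted by the authors with Agilent Feature Extraction 10.7.3.1 (hg19 annotation) and not scaled between arrays. The deposited series table holds the same intensity values, and was used as an alternative. Each array held 62976 spots, 58717 of them not controls. No spot was saturated, and outlier spots were left out before spots of a probe were averaged. Of the 50599 probes, 43.3% to 48.0% were flagged as well above background on an array, whose 75th percentile was an intensity of 137 to 189. The number of arrays limits the precision.

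Levels are log2 of the processed intensity minus that of the 75th percentile of the array. They were fitted with limma 3.58.1 (R 4.3.3; lmFit, eBayes) as 4 group means over 8 arrays, with 4 residual and 2.17 prior degrees of freedom. Tests were two-sided. The fit with the siCONT arrays averaged to 1 sample had 6 samples and 2 residual degrees of freedom. Bounds and lists were computed in Python 3.11.15. Of a gene in a list, the probe with the highest mean was used. Probes of members were matched to RefSeq symbols by accession (58 of 58).

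Members called in any comparison, members well above background on all arrays, and all other probes of their genes are named, with UHRF1, TAF7 and SLC25A2. From the other lists, genes called in the combination were named where they were CTCF, cohesin or SMCHD1, and otherwise up to 3 by size of change. The result of 1 gene of the regulator list is not reported here. The members and lists were chosen with earlier results of these data known. The labels' replicate numbers mark the same siRNA in the UHRF1 groups, whose deviations correlated at 0.34 across probes, but those of the other pairs of groups correlated only between −0.06 and 0.07, so the numbers were not taken to pair the samples. The fit was tested on simulated data. Alternatives were normexp with an offset of 50, quantile normalization, other scalings and filters, the deposited table, a replicate block, the methods' t-test, and leaving out each array.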

Additional observations from a re-analysis of the deposited data

Results flagged for a closer look

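Of the 12 members that could be tested (of 58), PCDHA12 alone had a called difference between its response to UHRF1 depletion under TSA and under mock. It entered this test only through the group where it is high, UHRF1 depletion with TSA. The effect under TSA minus that under mock was 2.32 on the log2 scale (SE 0.43, limma adjusted p = 0.0399). Its levels were −5.40 and −5.01 in siCONT with mock, −5.17 and −5.49 after depletion with mock, −4.94 and −5.74 in siCONT with TSA, and −2.96 and −3.33 with both, where alone it was well above background. Because 3 of the 4 levels that enter the difference are below background, its size is not a measured fold. The call was lost with the siCONT arrays counted as 1 sample (limma adjusted p = 0.308) and in 12 of the 16 alternatives.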

How the results depend on the processing

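All called members kept the direction of their change under all alternatives in which they were tested: of 271 values, 218 kept the call, 53 lost it and 0 changed sign. With normexp and its offset of 50, 0 members were called in any comparison. Calls fell over all probes too: in the combination 1301 of 23734 were called higher, against 3452 without normexp. Effects of the background correction and of the offset were not tested apart. With only probes well above background on all 8 arrays, the calls were 1 in the combination, 1 for TSA in siCONT, 1 for TSA in UHRF1-depleted cells, 0 for depletion under TSA and 0 for the interaction, since dim probes were not tested. With no filter they were 12 in the combination, 12 for TSA in UHRF1-depleted cells and 8 for depletion under TSA, of 58. Over all 50599 probes the calls were then 6458, 5225 and 1613, respectively. Without the filter, probes dark in both groups were tested as well, and their levels are set largely by the background. With the siCONT arrays as 1 sample the member calls were 0 for TSA in siCONT, 0 for depletion under TSA and 0 for the interaction. Median scaling gave 3 for TSA in UHRF1-depleted cells, and moved the median change of all probes tested in the combination from −0.14 to −0.54. It gave 0 for the interaction, as did quantile normalization. The cause was not tested. The methods' t-test after adjustment gave 0 for TSA in UHRF1-depleted cells and 0 for depletion under TSA, and in both it also called 0 of all probes tested. The replicate block gave 0 for the interaction (PCDHA12, limma adjusted p = 0.0542) and 6 for TSA in UHRF1-depleted cells, and changed no other count.

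Leaving out each array gave 5 to 9 calls in the combination, 4 to 8 for TSA in UHRF1-depleted cells, 2 to 3 for TSA in siCONT, 1 to 5 for depletion under TSA, 0 to 2 for depletion under mock and 0 to 4 for the interaction. In the combination, for TSA in depleted cells, for depletion under TSA and for the interaction, the counts were highest without the first siRNA array of depletion plus TSA. Probes seen with the second siRNA alone were also tested there. Over all probes, leaving out this first array raised the calls in the combination but lowered them for depletion under TSA and for the interaction. Without the second, depletion under TSA gave 3. Without the second siCONT array with TSA it gave 2. Depletion under mock gave 2 without the first and 1 without the second array of that group. The interaction gave 2 without the first of these, and 0 without any siCONT array. Over all probes tested, interaction calls also fell without any siCONT array. Calls for depletion under mock also rose over all probes without either array of that group. That fall for the interaction and that rise for depletion under mock are thus not particular to the members. A lone array was assumed to vary like the other groups. Signals near background limit all but PCDHGA2 to bounds.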
